A study of Mus musculus with 36 samples.

Results

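LiTEC mouse embryonic stem cells, from a study of proteins brought to condensates by light, were compared with wild-type (WT) cells after both had been exposed to blue light. The comparison was set by the column names and takes 18 of the 36 libraries of the series, 9 from LiTEC cells and 9 from WT cells. The LiTEC cells are labelled as transfected. The labels do not say which promoter drives the construct or how many clones were used, and its own transcript is not measured here. Every culture, WT included, grew in serum-free medium with a MEK inhibitor, a GSK3β inhibitor and leukaemia inhibitory factor (LIF). Every culture had also received doxycycline at 2 µg/ml for 2 days, so neither group is free of the drug. The lit cultures stood on a blue LED panel for 30 min, and RNA was taken 0, 1 or 4 h later. Each of the 6 lit groups has 3 libraries, of which the first belongs to batch 1 and the others to batch 2. A further 18 libraries from dark cultures of the same cells share no library with the lit set and give a second measurement of the same difference. They carry the same batch and replicate numbers as the lit libraries, so the dark set may not be independent of the lit set.

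Stem cells in this medium hold a naive state, in which factors such as Nanog, Esrrb and Klf4 sustain self-renewal and Wnt signalling is kept active by blocking GSK3. A small share of such cells passes through a state that resembles the 2-cell embryo, marked by Zscan4 and other genes that are otherwise silent.

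Library totals ran from 11132970 to 20102278 counts in lit LiTEC cells and from 14268987 to 18980477 in lit WT cells. The ribosomal RNA locus Gm26917 took 9.56% to 16.3% of the counts in LiTEC libraries and 8.25% to 12.1% in WT libraries; the highest share was in LiTEC replicate 1 at 0 h, and 7613 genes were called without that library. The summed level of 9 embryonic stem cell markers was 3311 to 4221 CPM (counts scaled to a common library size) in LiTEC libraries and 3003 to 4256 CPM in WT libraries. All 9 markers passed the filter on low counts. Of these 9, 2 were called higher and 4 lower in LiTEC cells, beside 22.8% and 21.6% of all tested genes. Overlapping sums therefore do not mean that the single markers were alike. Whether replicates came from separate cultures is not stated in the labels. The spread behind each p-value is that of these libraries and may be technical. The main fit treated the 9 libraries of a line as independent, although libraries with the same replicate number deviated together. Its p-values and the separations of 9 against 9 libraries can therefore not be read as those of 9 separate cultures per line. In bulk RNA, fewer cells of a type and less RNA per cell cannot be told apart.

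The LiTEC and WT cells differed in a large share of their genes, mostly by little. Of 17494 genes tested with edgeR's quasi-likelihood test, with time and batch as covariates, 7773 were called at an adjusted p below 0.05, which is 44.4% of all tested. Among these, 3987 genes (22.8%) were higher in LiTEC cells and 3786 (21.6%) were lower. The median size of a called difference was 0.33 on the log2 scale, and 67.7% of called differences were under 0.5. A difference of at least 1 on the log2 scale was called for 832 genes, 534 higher and 298 lower in LiTEC cells. For 727 genes (4.16%) all 9 LiTEC libraries lay above all 9 WT libraries, and for 531 (3.04%) all lay below. Levels of many genes also differed between the batches; within each batch the LiTEC libraries lay apart from the WT libraries for 1086 genes on the high side (6.21%) and 858 on the low side (4.90%).

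Several genes were detected at steady levels in LiTEC cells and were close to absent in WT cells. Csf3, which encodes the granulocyte growth factor G-CSF and lies at chr11:98701263-98703629 (GRCm38), ranged from 12.4 to 24.4 CPM with a median of 15.0 in LiTEC libraries, against 0 to 0.112 CPM with a median of 0 in WT libraries. The 9 LiTEC libraries held 2541 counts of it in all and the 9 WT libraries 2 counts, a ratio of 1238 with a 95% counting interval of 343 to 10223. Acsm4, a member of the medium-chain acyl-CoA synthetase family, had 594 counts over LiTEC libraries and 0 over WT libraries, at least 193-fold higher in LiTEC cells when WT is set to a floor of 3 counts over the group. A2ml1, a protease inhibitor related to α2-macroglobulin, had 187 and 0 counts, at least 60.7-fold higher. Mro had 205 counts in LiTEC and 1 in WT libraries (ratio 200, interval 35.9 to 7890), and the transcription factor gene Sox14 had 160 and 1 (ratio 156, interval 28.0 to 6158). These intervals and floors cover counting error only. The 5 genes above are all that averaged at least 1 CPM in LiTEC cells with no more than 3 counts over WT cells, and no gene met the same limits with LiTEC and WT exchanged, although the pseudogene Ftl2-ps came near, at 0 to 0.105 CPM in LiTEC and 56.9 to 96.4 CPM in WT libraries; all 5 were also higher in LiTEC cells in the dark.

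Epx, Lypd1, Unc80 and Lcp1 were among the other large increases. Epx, the eosinophil peroxidase gene, lay between 10.8 and 23.9 CPM (median 20.7) in LiTEC libraries and between 0 and 0.358 CPM (median 0.120) in WT libraries, a log2 fold change of 6.94 ± 0.20 (SE) with an adjusted p of 2.69e-19. Unc80, a subunit of the sodium leak channel complex, had 4.79 to 8.21 CPM in LiTEC and 0.0621 to 0.407 CPM in WT libraries, a log2 fold change of 4.90. Lcp1, an actin-bundling protein of leukocytes, had 5.44 to 20.4 CPM in LiTEC and 0.431 to 1.06 CPM in WT libraries, a log2 fold change of 4.06. None of these ranges overlap. Lypd1, a membrane-anchored protein of the Ly6 family, rose by a log2 fold change of 5.01 ± 0.25 with LiTEC libraries at 1.45 to 10.2 CPM and WT libraries at 0.0529 to 0.504 CPM; LiTEC batch 1 libraries were the lowest of the 9. The remaining genes of the 20 largest increases, named by their size among genes of at least 5 CPM, include Dlg3, a scaffold of synapses and cell junctions (2.28), Med12l, a paralogue of the Mediator subunit Med12 (2.35), the hydrogen peroxide producing oxidase Duox1 (2.61), the cofilin phosphatase Ssh3 (2.48) and the transporter Abcc2 (2.26), all log2 fold changes with LiTEC libraries above every WT library.

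**Figure D1:**
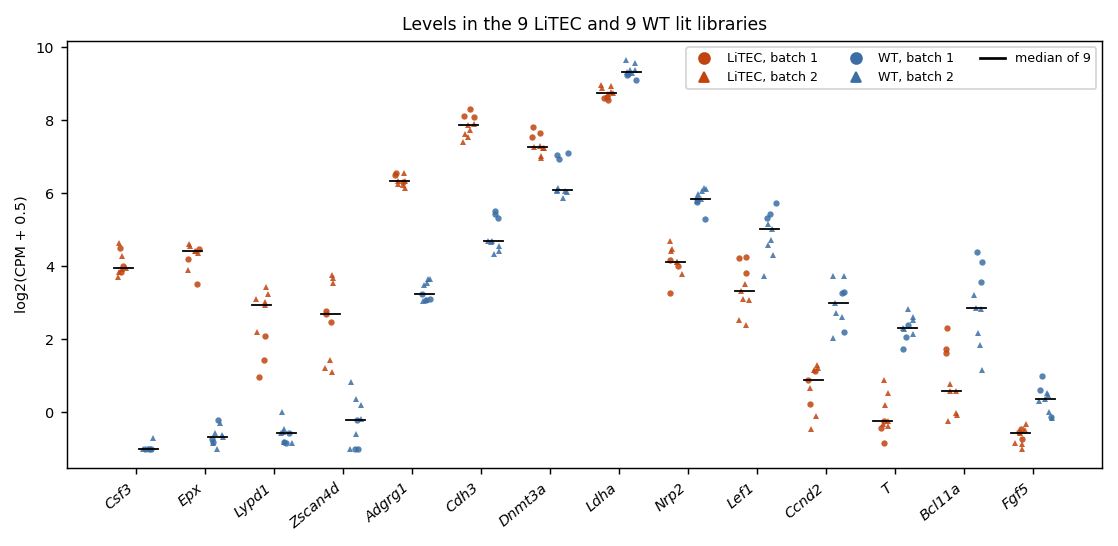
Levels of 14 genes, as log2(CPM + 0.5), in each of the 9 LiTEC and 9 WT lit libraries; colours mark the genotype, shapes the batch, and black bars the median of 9. Csf3 and Epx sit near the bottom of the scale in WT libraries, while the LiTEC libraries of Nrp2, Ldha and Ccnd2 lie below the WT libraries.

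Among genes with an established symbol, pseudogene names left out, Ccnd2, Bcl11a and Nrp2 were among the largest decreases. Ccnd2, which encodes cyclin D2 of the G1 phase, lay between 0.233 and 1.95 CPM (median 1.34) in LiTEC libraries and between 3.60 and 12.9 CPM (median 7.46) in WT libraries, without overlap; it fell by 2.64 ± 0.25 on the log2 scale (adjusted p 4.13e-09). Nrp2, a receptor for semaphorins and VEGF, had 9.12 to 25.5 CPM in LiTEC and 38.6 to 70.2 CPM in WT libraries, again without overlap, and fell by 1.76 ± 0.07 (adjusted p 1.48e-16). Bcl11a, a zinc finger repressor of fetal globin genes, fell by 2.49, with 0.349 to 4.47 CPM in LiTEC and 1.74 to 20.5 CPM in WT libraries; the ranges overlap across batches but not within either batch. Dpysl3, a cytoskeletal protein of growing axons (log2 fold change -1.40), and Hmces, which shields abasic sites in DNA (-1.33), each had all LiTEC libraries below all WT libraries. The 2 largest decreases of all among genes of at least 5 CPM were pseudogenes, which the naming rule leaves out and which were chosen after their values were seen: Ftl2-ps averaged 0.0410 ± 0.0420 CPM in LiTEC and 81.8 ± 12.8 CPM in WT libraries (SD, n = 9 each), and Gm6394 averaged 0.295 ± 0.193 and 13.1 ± 0.99 CPM, log2 fold changes of -10.77 and -5.46. Ftl1, the ferritin light chain gene that Ftl2-ps copies, went the other way and rose by 0.51 on the log2 scale. Reads of such copies may be split between them, so these counts are uncertain.

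Genes of the 2-cell-like state were higher in LiTEC cells, at low levels. Gene lists here and below were chosen with earlier results of these data known, so their shares describe the chosen genes only. Of 20 listed genes 12 passed the filter on low counts, which a gene can pass through the LiTEC libraries alone, so the counts are a description. Of these 12, 11 were called higher in LiTEC cells, beside 22.8% of all tested genes, and Eif1a alone was lower (-0.12). The list's median log2 fold change was 3.60, beside -0.0014 over all tested genes. Zscan4d, at chr7:11161374-11166159, encodes a zinc finger protein linked to telomere maintenance in stem cells. It lay between 1.63 and 13.0 CPM (median 5.98) in LiTEC libraries and between 0 and 1.27 CPM (median 0.358) in WT libraries. Every LiTEC library exceeded every WT library, and the log2 fold change was 4.08 ± 0.50 (adjusted p 2.68e-07). The level differed between the replicates in the same way at each time. In LiTEC cells at 0, 1 and 4 h, Zscan4d had 5.07, 6.30 and 5.98 CPM in replicate 1, 1.81, 1.63 and 2.21 CPM in replicate 2, and 13.0, 11.1 and 12.4 CPM in replicate 3; in WT cells replicate 3 was also the highest at every time, with 0.791, 0.659 and 1.27 CPM. The other Zscan4 genes tested rose by log2 fold changes of 3.56 (Zscan4f) to 3.88 (Zscan4e). Zfp352, another gene of the state, had 0.451 to 1.67 CPM in LiTEC and 0 to 0.240 CPM in WT libraries, and the deubiquitinase gene Usp17lc had 0.368 to 2.15 and 0 to 0.299 CPM. The Zscan4 copies, and likewise the Usp17l copies, are near-identical, so the split of reads among them is uncertain.

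The RefSeq table of GRCm38.p6 promoters matched 4 of the 6 Zscan4 genes, and 3 of these are shown as examples of how alike the copies are; the fourth, that of Zscan4b, also holds 1 match to each word, and its transcript rose by 3.69; each window runs from 250 bases before to 50 bases after the gene start. Capitals mark TGAT and AATCA with any 2 bases between them, a loose form of the word bound by the 2-cell factor DUX, and TATAAA; both were searched on both strands. The windows are chr7:11005495-11005794 (plus strand), chr7:11166099-11166398 (minus strand) and chr7:11397665-11397964 (plus strand).
Zscan4c: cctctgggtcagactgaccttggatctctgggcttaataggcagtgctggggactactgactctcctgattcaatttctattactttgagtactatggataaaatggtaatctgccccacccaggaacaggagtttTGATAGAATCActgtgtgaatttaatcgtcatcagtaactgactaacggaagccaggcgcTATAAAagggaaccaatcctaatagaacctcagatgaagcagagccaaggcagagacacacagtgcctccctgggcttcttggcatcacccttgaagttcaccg
Zscan4d: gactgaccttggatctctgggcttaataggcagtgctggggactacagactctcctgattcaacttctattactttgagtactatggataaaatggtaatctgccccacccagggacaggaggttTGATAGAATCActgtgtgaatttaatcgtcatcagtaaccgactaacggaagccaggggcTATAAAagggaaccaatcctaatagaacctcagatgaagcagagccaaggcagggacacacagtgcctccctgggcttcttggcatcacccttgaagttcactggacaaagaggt
Zscan4f: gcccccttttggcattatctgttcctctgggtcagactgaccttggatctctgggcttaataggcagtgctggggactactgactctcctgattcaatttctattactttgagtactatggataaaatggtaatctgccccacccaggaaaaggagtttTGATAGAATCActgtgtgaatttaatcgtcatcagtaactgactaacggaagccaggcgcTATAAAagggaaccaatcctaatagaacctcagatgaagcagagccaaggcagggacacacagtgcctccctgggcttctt
Each of these windows holds 1 match to the spaced word and 1 to TATAAA. Among all 32851 promoter windows of the table, 0.207% hold the spaced word and 13.6% hold TATAAA. In a local alignment the windows of Zscan4c and Zscan4f were identical at 275 of 277 positions, and those of Zscan4c and Zscan4d at 280 of 287. A match is a description of the letters and does not show binding.

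Genes of naive pluripotency showed small differences in both directions. Of 26 tested members of the naive list, 7 were higher and 12 lower in LiTEC cells, beside 22.8% and 21.6% of all tested genes. The list's median log2 fold change was -0.09. Pou5f1 and Nanog did not pass the test, at -0.10 and -0.07 (adjusted p 0.084 and 0.327). For Nanog the batches differed. Batch 1 had 332 to 379 CPM in LiTEC and 280 to 343 CPM in WT libraries. Batch 2 had 365 to 404 CPM in LiTEC and 411 to 525 CPM in WT libraries, without overlap. Tfcp2l1, a transcription factor downstream of LIF, rose by 0.42 ± 0.03: within batch 1 it had 540 to 566 CPM in LiTEC and 352 to 426 CPM in WT libraries, and within batch 2 it had 1309 to 1414 CPM in LiTEC and 961 to 1119 CPM in WT libraries. The levels of the batches differed more than those of the genotypes, but the genotypes did not overlap within either. Zfp42 (Rex1) rose by 0.30, while Nr5a2, Tdgf1 and Klf4 fell by 0.44, 0.44 and 0.32. All are genes of the naive network or, for Tdgf1, a co-receptor of Nodal. Of the 7 naive members called higher, 2 lie on chromosome 8, whose genes had a median of 0.27. Of the 12 called lower, 1 lies on chromosome 6, whose genes had a median of -0.15.

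Genes of the formative and primed states were split. Of 17 tested, 4 were higher and 9 lower, beside 22.8% and 21.6% of all tested genes. The de novo DNA methyltransferase gene Dnmt3a had 124 to 222 CPM (median 154) in LiTEC and 57.8 to 138 CPM (median 67.9) in WT libraries, with no overlap within either batch, and rose by 0.96 ± 0.06 (adjusted p 1.16e-12). Otx2, a transcription factor of the formative state, rose by 0.86. Fgf5, the usual marker of that state, was low in both lines and fell by 2.33, with 0 to 0.307 CPM in LiTEC and 0.405 to 1.48 CPM in WT libraries. Pou3f1 fell by 1.13 and Sox3 by 0.77. In the list of DNA methylation genes, which holds Dnmt3a, 2 of 12 tested were higher and 4 lower, 6 being called beside 44.4% of all tested genes. Tet2, which oxidises methylcytosine, had 252 to 325 CPM in LiTEC and 365 to 553 CPM in WT libraries and fell by 0.58, and Uhrf1, the maintenance cofactor, fell by 0.31.

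More Wnt and Nodal response genes were lower than higher in LiTEC cells. In the Wnt list 2 of 15 tested members were higher and 7 lower (median -0.14). In the Nodal and TGF-β list 1 of 17 was higher and 7 lower (median -0.12). Over all tested genes 22.8% were higher and 21.6% lower. Brachyury (T), a Wnt target of the primitive streak, lay between 0.0563 and 1.36 CPM (median 0.347) in LiTEC libraries and between 2.80 and 6.65 CPM (median 4.41) in WT libraries, without overlap, and fell by 3.15 ± 0.25 (adjusted p 1.25e-10). Lef1, a transcription factor of the Wnt pathway, fell by 1.55, with 13.5 to 18.7 CPM in LiTEC and at least 39.7 CPM in WT libraries in batch 1 and 4.79 to 11.0 and 12.7 to 35.2 CPM in batch 2. Notum, a secreted Wnt inhibitor that is itself a Wnt target, had 10.2 to 21.8 CPM in LiTEC and 29.7 to 48.4 CPM in WT libraries and fell by 1.29; a transcript annotated on its other strand makes that count uncertain. Ccnd1 fell by 0.73 and the streak gene Lefty2, a Nodal inhibitor, by 0.81, whereas Ctnnb1 (β-catenin) rose by 0.15. Of 13 mesendoderm genes tested, 2 were higher and 6 lower. The lower ones include Fgf8 (-2.00) and Wnt3 (-1.57), both under 3 CPM in every library. The 2 higher ones were Cdx1 and Nodal. Cdx1 averaged 2.71 CPM in LiTEC and 2.03 CPM in WT libraries, and Nodal 50.6 and 44.5 CPM. For both genes the ranges of the lines overlap.

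More matrix and adhesion genes were higher than lower in LiTEC cells. Of 23 tested members, 13 were higher and 7 lower in LiTEC cells (median 0.16), beside 22.8% and 21.6% of all tested genes. Cdh1, E-cadherin, had 590 to 782 CPM (median 706) in LiTEC and 390 to 519 CPM (median 434) in WT libraries, and rose by 0.67 ± 0.04 (adjusted p 4.68e-12). The integrin genes Itgav, Itgb5 and Itgb1 rose by 0.80, 0.89 and 0.59, and the laminin gene Lamc1 by 0.53. All 5 had every LiTEC library above every WT library. Cdh2, N-cadherin, fell by 0.76. Some adhesion genes outside the list differed more: Cdh3, P-cadherin, at chr8:106510891-106557297, had 167 to 316 CPM (median 233) in LiTEC and 19.7 to 45.4 CPM (median 25.2) in WT libraries and rose by 3.01 ± 0.07, and the adhesion receptor gene Adgrg1, at chr8:94974751-95014217, had 70.4 to 94.2 CPM in LiTEC and 7.69 to 12.1 CPM in WT libraries and rose by 3.09.

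Cdh3, Cdh1, Itgb1 and Adgrg1 lie on chromosome 8, whose genes as a whole were higher in LiTEC cells. Among genes of at least 1 CPM, the median log2 fold change was 0.27 for the 779 genes of chromosome 8, of which 525 were called higher and 21 lower (70.1% called). It was -0.15 for the 675 genes of chromosome 6, with 101 called higher and 326 lower (63.3% called), and 0.81 for the 7 genes of chromosome Y, all called higher. The other chromosomes had medians from -0.05 to 0.01, and 46.5% of their genes were called. Against WT libraries of the same time and batch, the 9 LiTEC libraries ranged from 0.24 to 0.29 for chromosome 8, from -0.17 to -0.13 for chromosome 6 and from 0.61 to 1.01 for chromosome Y. In the dark libraries the 3 medians were 0.27, -0.16 and 0.70. The Y-linked genes include the RNA helicase gene Ddx3y, at 80.3 to 102 CPM in LiTEC and 49.5 to 56.4 CPM in WT libraries, and the histone demethylase gene Kdm5d, at 0.819 to 3.78 and 0 to 0.448 CPM. Of 6 tested members of the Y-linked list, with no limit on CPM, 5 were higher and 1 was not called. The lowest log2 fold change in that list was -0.16. Of the 13 adhesion genes that rose, 4 are on chromosome 8. The part of the chromosome in these results was not tested.

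**Figure D2:**
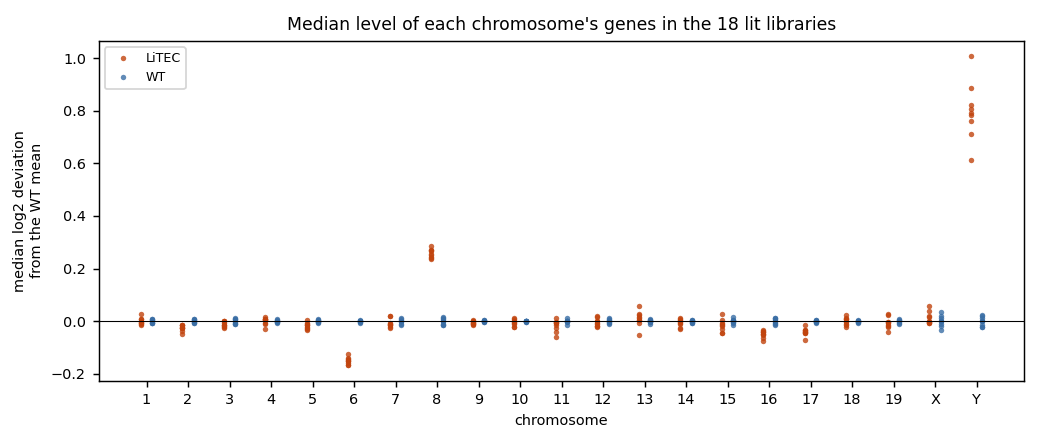
Median over genes of each chromosome (mean of at least 1 CPM) of the log2 level minus the mean of WT libraries of the same time and batch, with 1 point for each of the 9 LiTEC and 9 WT lit libraries. LiTEC libraries lie at 0.24 to 0.29 for chromosome 8, at -0.17 to -0.13 for chromosome 6 and at 0.61 to 1.01 for chromosome Y.

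Most glycolytic and hypoxia-responsive genes were lower. Of 23 tested, 18 were lower and 2 higher in LiTEC cells, beside 21.6% and 22.8% of all tested genes, and the median was -0.24. Ldha, lactate dehydrogenase A, had 376 to 498 CPM (median 425) in LiTEC and 551 to 799 CPM (median 643) in WT libraries, without overlap, and fell by 0.60 ± 0.04 (adjusted p 2.14e-11). The hexokinase gene Hk2 fell by 0.40, the glycolytic enzyme gene Pgk1 by 0.44, the phosphofructokinase gene Pfkp by 0.51 and the hypoxia gene Ndrg1 by 0.85. The 2 that rose were Pfkm (0.38), another phosphofructokinase gene, and Hk1 (0.46), another hexokinase gene named after its value was seen. Of the 18 genes that fell, 4 (Hk2, Gapdh, Tpi1 and Slc2a3, the last pair named after their values were seen) lie on chromosome 6.

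Chaperones of the endoplasmic reticulum were among the genes that fell. In the unfolded protein response list 11 of 18 tested members were lower and 2 higher (median -0.14). For this and the following lists, the shares over all tested genes were 21.6% lower and 22.8% higher. Pdia4, a disulfide isomerase on chromosome 6, had 131 to 149 CPM in LiTEC and 171 to 202 CPM in WT libraries and fell by 0.47, and Hyou1 had 159 to 207 and 210 to 272 CPM and fell by 0.37. Hspa5 (BiP), the main chaperone of that compartment, fell by 0.20. Among p53 targets, 11 of 19 were higher and 4 lower; the pro-apoptotic Pmaip1 (Noxa) had 9.95 to 20.6 CPM in LiTEC and 3.24 to 8.15 CPM in WT libraries and rose by 1.48, and Cdkn1a (p21) rose by 0.38. In the list of NRF2 targets 5 of 19 were higher and 9 lower.

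The transcription machinery, the object of many studies of nuclear condensates, showed small differences. Of 33 Mediator genes 8 were higher and 8 lower, with a median of -0.04. That is 48.5% called, near the 44.4% of all tested genes. For this and the following lists, the shares over all tested genes were 22.8% higher and 21.6% lower. Apart from Med12l, the largest were Med16, with 31.1 to 36.8 CPM in LiTEC and 20.6 to 28.4 CPM in WT libraries (log2 fold change 0.47), and Med25, with 87.9 to 106 and 112 to 136 CPM (-0.38). Of 13 genes for RNA polymerase II subunits, 2 were higher and 7 lower; Polr2a, the largest subunit, had 601 to 818 CPM in LiTEC and 786 to 908 CPM in WT libraries and fell by 0.31 ± 0.04. Of 27 genes of pause release and elongation, 4 were higher and 11 lower, Ell (0.53, on chromosome 8) and Ell2 (0.45) being the largest increases and Supt5 (-0.29) the largest decrease. In the Polycomb list 11 of 22 members were lower, among them Phc1 (-0.54) and Ezh2 (-0.29), both on chromosome 6, and 5 were higher, among them Bmi1 (0.56).

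More genes of G1/S and replication were lower than higher. Of 24 members of the G1/S and replication list 12 were lower and 3 higher (median -0.08), beside 21.6% and 22.8% of all tested genes. Among the lower ones, beside Ccnd2 and Ccnd1, were Ccne1 (-0.41), cyclin E1, and Mcm2 (-0.32), a subunit of the replicative helicase. Of the 12 lower members 2 lie on chromosome 6, Mcm2 among them. Of 17 G2/M genes 2 were lower and 1 higher.

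**Figure D3:**
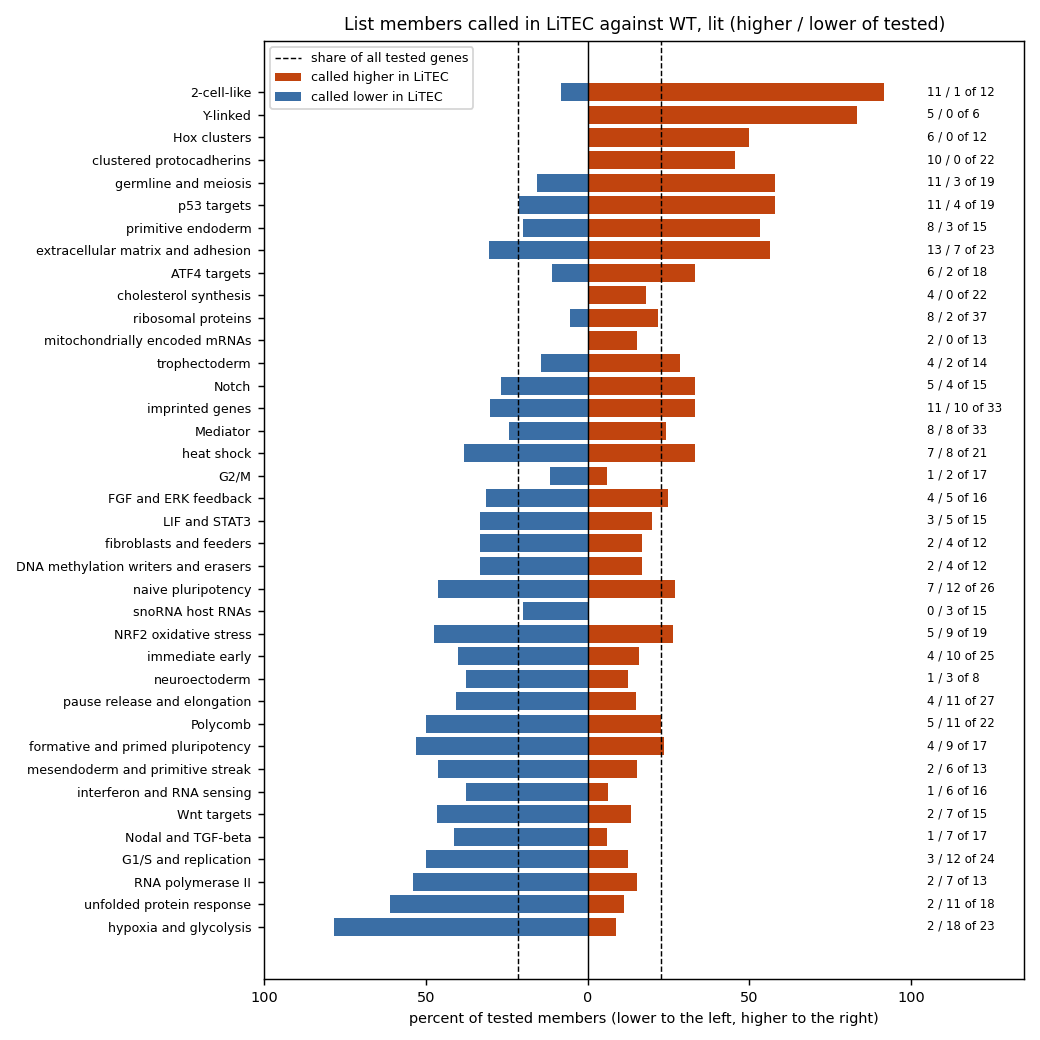
Share of the tested members of each of 38 gene lists called higher (right) or lower (left) in lit LiTEC cells against lit WT cells, with counts at the right; dashed lines mark the shares of all tested genes, 22.8% higher and 21.6% lower. The 2-cell-like list reaches 11 of 12 on the higher side and the hypoxia and glycolysis list 18 of 23 on the lower side. All lists were chosen with earlier results of these data known.

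Many genes differed between the lines at each of the 3 times after light. At 0 h 4293 genes were called (24.5%; 12.7% higher, 11.9% lower), at 1 h 3959 (22.6%; 12.3% and 10.4%) and at 4 h 3596 (20.6%; 11.2% and 9.38%), and 2140 genes were called at all 3 times in one direction. A test of whether the LiTEC to WT difference changed over time called 3 genes (0.0171%), and 895 had an unadjusted p below 0.05; with the replicate number as a block in place of batch it called 10. The 3 genes are non-coding RNAs that were low in WT cells directly after light. Lrrc75aos2, an RNA antisense to Lrrc75a, had 6.48, 7.68 and 7.19 CPM in LiTEC libraries at 0 h and 2.59, 2.74 and 1.73 CPM in WT libraries, a log2 fold change of 1.57 ± 0.17. At 1 h it had 11.8 CPM in all 3 LiTEC libraries and 13.3, 15.3 and 12.7 CPM in WT libraries, and at 4 h 6.14 to 6.75 and 6.21 to 8.61 CPM. The adjusted p for the change over time was 0.000721. In the dark at 0 h the LiTEC libraries had 9.36, 8.18 and 9.91 CPM and the WT libraries 10.1, 9.30 and 10.8 CPM, so both lit groups were below their dark counterparts at that time and lit WT cells lay lowest.

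Snord43 and Dancr were also lowest in lit WT cells at 0 h. Snord43 is a C/D box small nucleolar RNA at chr15:80082847-80082954, within the span of the ribosomal protein gene Rpl3, on the minus strand of GRCm38, typed as a miRNA in the GENCODE M21 annotation, whose transcript is printed here. C/D box RNAs guide methylation of ribosomal RNA and carry a C box and a D box; the sequence is shown because it is the only small RNA among the 3 genes, with one TGATGA and the last CTGA in capitals.
Snord43: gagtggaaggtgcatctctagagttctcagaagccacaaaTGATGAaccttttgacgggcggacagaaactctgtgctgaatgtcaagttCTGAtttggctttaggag
Snord43 had 5.52, 5.42 and 5.80 CPM in LiTEC libraries at 0 h and 1.80, 2.49 and 2.16 CPM in WT libraries. The log2 fold change was 1.38 ± 0.17, against -0.23 at 1 h and -0.15 at 4 h (adjusted p for the change 0.00171). The libraries were made from poly(A) RNA, and whether strand was used in counting is not given. Reads from Rpl3 RNA may therefore be part of this count, which is uncertain as a level of the small RNA. Dancr, a long non-coding RNA whose exons overlap the small nucleolar RNA Snora26, had 18.7, 20.3 and 17.3 CPM in LiTEC and 9.57, 10.5 and 10.7 CPM in WT libraries at 0 h, a log2 fold change of 0.87 ± 0.13, against -0.08 and -0.13 later (adjusted p 0.0278). The 0 h groups of both genes do not overlap. The call of Dancr ended when any of 8 single libraries was left out, with adjusted p between 0.0576 and 0.414: LiTEC replicates 1 and 2 at 0 h, LiTEC replicates 1 and 2 at 1 h, and WT replicates 1 and 2 at 0 h, 1 at 1 h and 3 at 4 h. Among 15 host genes of small nucleolar RNAs tested over all times, none was higher and 3 were lower in LiTEC cells. Over all tested genes 22.8% were higher and 21.6% lower.

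The inducible heat shock genes had their largest fold changes directly after light. Hspa1a, which encodes the chaperone HSP70, had 6.71, 2.44 and 6.30 CPM in LiTEC libraries at 0 h and 69.7, 28.3 and 50.5 CPM in WT libraries, then 10.4, 3.38 and 15.4 CPM in LiTEC and 31.4, 10.3 and 40.3 CPM in WT libraries at 1 h, and at 4 h 2.05, 0.614 and 0.785 CPM in LiTEC and 1.49, 0.497 and 1.33 CPM in WT libraries. In the dark it was between 0.310 and 1.19 CPM in LiTEC and between 0.455 and 1.81 CPM in WT libraries. The log2 fold change was -3.20 ± 0.44 at 0 h (adjusted p 1.34e-05), -1.47 ± 0.40 at 1 h (0.00957) and 0.03 ± 0.89 at 4 h (0.987). Its change over time was not called with batch as the covariate (adjusted p 0.809) and was called with the replicate block (4.61e-05). Hspa1b, a near-identical copy with which reads may be exchanged, had 15.2 to 27.4 CPM in LiTEC and 74.2 to 158 CPM in WT libraries at 0 h (log2 fold change -2.31); its change over time was likewise called with the replicate block alone (adjusted p 0.0264, against 0.67). In the heat shock list 7 of 21 members were higher and 8 lower, beside 22.8% and 21.6% of all tested genes. Hspb1, a small heat shock protein, rose by 0.66 with 335 to 456 CPM in LiTEC and 222 to 257 CPM in WT libraries.

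**Figure D4:**
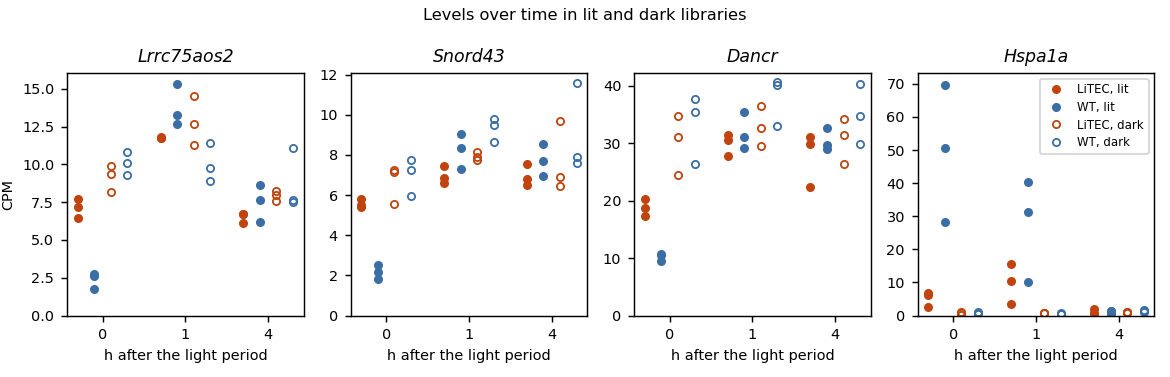
CPM of Lrrc75aos2, Snord43, Dancr and Hspa1a in each library by hours after the light period, with LiTEC and WT cells in separate colours and lit and dark libraries as filled and open circles. At 0 h the lit LiTEC libraries lie above the lit WT libraries for the 3 non-coding RNAs and below them for Hspa1a, whose dark libraries are all under 2 CPM.

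The dark library of WT replicate 3 at 4 h stood apart, with 26.1% of its counts in Gm26917 against 8.12% to 11.4% in the other dark libraries. In dark libraries 8244 of 17538 tested genes were called (47.0%; 24.4% higher and 22.6% lower in LiTEC cells). Of 17167 genes tested in both sets, 6277 were called in both, all in the same direction, which is 81.5% of the lit calls and 77.1% of the dark calls. Across these genes, which are not independent replicates, the log2 fold changes of the lit and dark sets had a Pearson correlation of 0.925 and a Spearman correlation of 0.827. Without that WT library, an alternative chosen after seeing the data, 8573 genes were called in the dark and 6466 in both sets in the same direction, with 1 in opposite directions. Of 783 genes called in the lit set with a log2 fold change of at least 1 in size, 781 had the same direction in the dark and 748 were called there. Zscan4d was at 4.08 in lit and 3.61 in dark cells, Cdh3 at 3.01 and 2.98, Ccnd2 at -2.64 and -2.82, and T at -3.15 and -3.26, on the log2 scale. Hspa1a was at -2.06 in lit and -0.20 in dark cells. A direct test of the lit difference minus the dark difference, averaged over the 3 times in a fit of all 36 libraries, called 0 of 18193 genes by edgeR; 1060 genes had an unadjusted p below 0.05 and the smallest adjusted p was 0.451. For Hspa1a that test gave -1.38 ± 0.55 with an unadjusted p of 0.0171 and an adjusted p of 0.845. Without the WT library that stood apart edgeR's test again called 0 genes; the lowest adjusted p was 0.164, and 890 genes had an unadjusted p under 0.05.

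**Figure D5:**
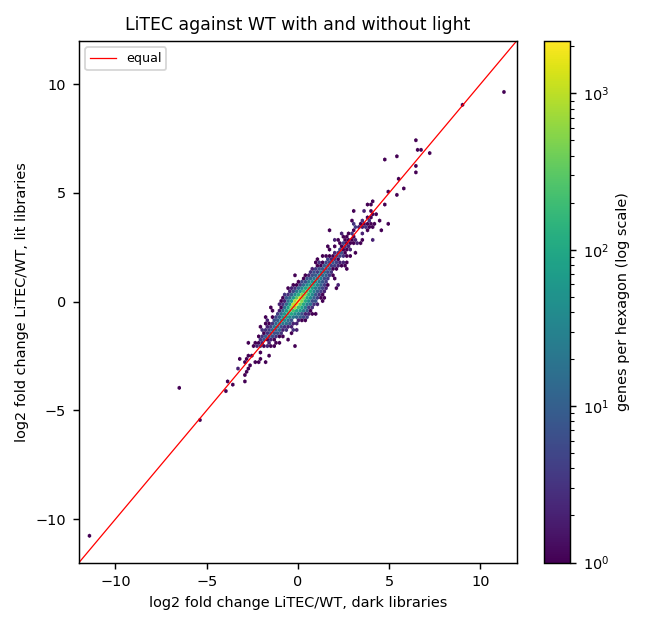
Log2 fold change of LiTEC against WT in lit libraries (vertical) and in dark libraries (horizontal) for 17167 genes, as counts per hexagon on a log colour scale; the red line marks equal values. Points follow the line, with a Pearson correlation of 0.925.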

How the data were processed

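Poly(A) RNA libraries (a stranded kit, per the labels' protocols) were deposited as a table of raw counts per gene; the submitters' processing notes list FastQC, featureCounts and mm10 (GRCm38). How reads were aligned, whether strand was used in counting and which versions were run are details not given in the sources used here. Therefore counts of overlapping genes and near-identical copies are uncertain. Symbols come from the authors' deposited name map, and coordinates from GENCODE M21 (GRCm38), matched by gene ID for 17486 of the 17494 tested genes. Promoters come from RefSeq (GRCm38.p6). No column outside the 36 libraries was present.

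Genes were kept with filterByExpr on the 6 lit groups (minimum count 10), scaled by TMM and fitted with edgeR 4.0.16 (glmQLFit, glmQLFTest; limma 3.58.1, R 4.3.3) on the 18 lit libraries with genotype, time and batch, leaving 13 residual degrees of freedom. A fit with a mean for each genotype and time gave the differences at each time and the test of their change, and the 36 libraries together gave the lit minus dark test. Benjamini-Hochberg adjustment covered every gene tested, with calls below 0.05; the SE is the log2 fold change divided by the square root of F. Levels are CPM on TMM-scaled sizes of all 36 libraries; libraries in a range are given as lowest, median and highest. The scripts were tested on simulated data. No pair of replicates agreed within sampling noise (lowest chi-square per degree of freedom 4.08).

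Same-numbered libraries of different lit groups deviated together, so the numbers pair the samples. The correlation was 0.405 to 0.706 over 10505 genes in all 9 pairs of a LiTEC and a WT library at one time. The main fit has a term for batch and none for the replicate number, so it leaves this pairing out. Alternatives were this replicate block, no batch term, each batch alone, other scaling, filters and fits, DESeq2 1.42.0, and leaving out each library.

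The named genes are the 20 largest called increases and decreases of at least 5 CPM with the same direction in both batches and an established symbol (no predicted, accession or pseudogene names), called list members with the smallest p, genes found in 1 genotype only, genes that changed over time, and fixed genes; some are left unnamed. Genes of a list with more than 1 ID are counted by the ID with the highest level. Members and the 38 lists were chosen with earlier results of these data known.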

Additional observations from a re-analysis of the deposited data

Results flagged for a closer look

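The LiTEC minus WT difference changed over the 3 times after light for Lrrc75aos2 (adjusted p 0.000721), Snord43 (0.00171) and Dancr (0.0278). The calls of Lrrc75aos2 and Snord43 held in all 18 fits that left out a library; that of Dancr held in 10 of 18. For Lrrc75aos2 every LiTEC library lay above every WT library at 0 h and below every one at 1 h, while its difference over all times was 0.22 on the log2 scale. Gas5, a long non-coding RNA that hosts small nucleolar RNAs, showed the same crossing, which was not tested beyond the change over time: at 0 h it had 168, 164 and 150 CPM in LiTEC and 117, 131 and 138 CPM in WT libraries, and at 1 h 224 to 233 and 236 to 265 CPM, with a difference of 0.0448 over all times and an adjusted p for the change over time of 0.151 (0.0135 with the replicate block).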

How the results depend on the processing

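Beside 7773 calls, batch 1 alone (3 libraries against 3) gave 3547 calls, 1877 higher and 1670 lower, and 832 calls had a log2 fold change of at least 1. Leaving out each library gave 7390 to 7688 calls (3819 to 3950 higher, 3535 to 3742 lower), 3144 to 4327 at 0 h, 2880 to 4084 at 1 h, 2532 to 3739 at 4 h, 2 to 5 for the change over time (5 without WT replicate 3 at 0 h) and 0 for lit minus dark. DESeq2 gave 7688 calls, 7567 of them the same genes in the same direction. At 0, 1 and 4 h, 2616, 2348 and 2049 genes were called without a batch term and 2079, 1995 and 1636 in batch 2 alone. The change over time was called for 10 genes with the replicate block, which paired the libraries and kept 7767 of the 7773 calls (8378 in all), for 69 with no filter on low counts and for 0 in batch 2 alone; the lit minus dark test called 38 genes with no filter. With a minimum of 0.5 CPM, 9 genes in place of 5 were found in LiTEC cells alone. In batch 1 alone 85 of the 7773 called genes changed sign, 0 of them called there. The named genes among them were Lama1 (0.0247), Eomes (0.25) and Psat1 (-0.0374). Among the named genes 8331 alternative values kept their side of the threshold, 151 lost the call and 22 gained it. Those 8331 can include a change of sign where a gene was called in neither fit. The cause was not tested. Counts of small numbers limit genes under 1 CPM.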

Other observations

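Imprinted genes, which are expressed from a single parental copy and are prone to drift in cultured stem cells, moved in both directions. Of 33 tested, 11 were higher and 10 lower in LiTEC cells, with a median of -0.01. The neighbours Peg10 and Sgce on chromosome 6 rose by log2 fold changes of 1.43 and 1.61 although the genes of that chromosome were lower as a whole: Peg10 had 425 to 1073 CPM in LiTEC and 210 to 374 CPM in WT libraries, and Sgce had 11.1 to 23.3 and 3.09 to 7.56 CPM, without overlap. Plagl1, a growth-restraining zinc finger gene, rose by 1.53. Within batch 1 it had 77.4 to 99.6 CPM in LiTEC and 16.7 to 21.8 CPM in WT libraries. Within batch 2 it had 175 to 234 CPM in LiTEC and 72.4 to 96.4 CPM in WT libraries. The ranges overlap across batches but not within either batch. H19 rose by 1.60, while Nnat fell by 1.48. Tfap2a, a transcription factor of the trophectoderm and neural crest, had 22.0 to 36.6 CPM in LiTEC and 4.54 to 16.0 CPM in WT libraries and rose by 1.80, and the placental factor gene Ascl2 rose by 2.20. Cdx2, a defining factor of the trophectoderm, fell by 2.72, with 0 to 0.126 CPM in LiTEC and 0 to 1.22 CPM in WT libraries. Of 14 trophectoderm genes tested 4 were higher and 2 lower, with a median of -0.06, beside 22.8% and 21.6% of all tested genes.

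Germline genes, several of which are silenced by DNA methylation in somatic cells, were higher in 11 and lower in 3 of 19 tested. For this and the following lists, the shares over all tested genes were 22.8% higher and 21.6% lower. Of 23 germline genes measured, 19 passed the filter on low counts, which a gene can pass through the LiTEC libraries alone. Tex19.1 had 29.5 to 54.2 CPM in LiTEC and 11.4 to 21.9 CPM in WT libraries and rose by 1.16, Dazl rose by 0.83 and Ddx4 by 0.62, while the synaptonemal complex gene Sycp3 fell by 0.58. In the primitive endoderm list 15 of 19 genes passed the same filter, of which 8 were higher and 3 lower. Gata4 and Lrp2 rose by 0.72 and 1.14, while Sox7 fell by 1.97. Among Notch genes the ligand gene Jag1 fell by 0.68 and Jag2 rose by 0.57, and the receptor gene Notch4 fell by 0.68 while Notch3 rose by 0.59; the difference of Notch3, at 0.91, 0.56 and 0.33 at 0, 1 and 4 h, changed over time with the replicate block (adjusted p 0.0137) and not with batch (0.966). In the FGF and ERK feedback list 4 of 16 were higher and 5 lower: the feedback inhibitor genes Dusp6 and Spry4 fell by 0.88 and 1.02, the inhibitor genes Spred1 and Spred2 rose by 0.26 and 0.21, and the receptor gene Fgfr1, on chromosome 8, rose by 0.55. The interferon-inducible membrane genes Ifitm1 and Ifitm3 fell by 0.67 and 0.73. Of 57 clustered protocadherin genes measured, 22 passed the filter on low counts, which a gene can pass through the LiTEC libraries alone, and 10 of these were higher and none lower; transcripts of a cluster can share exons, so their counts are not independent. Of 39 Hox genes measured, 12 passed the same filter; 6 of these were higher and none lower, Hoxc13 by 0.83. Fibroblast markers were low in both lines, with summed levels of 0.466 to 4.56 CPM in LiTEC and 1.80 to 6.24 CPM in WT libraries and Lum at 0 in all 18.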
